A study of Homo sapiens with 12 samples.

Results

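The alpha and beta tubulin isotypes examined were TUBA1A, TUBA1B, TUBA1C and TUBA4A of the alpha family and TUBB, TUBB2A, TUBB2B, TUBB3, TUBB4B and TUBB6 of the beta family. They were chosen by name, as the isotype genes known from dividing cells and neurons, and each of the 10 symbols matched 1 Ensembl identifier, 10 of the 58735 genes counted. The cells were 293T, a human embryonic kidney line, transduced with a lentiviral, doxycycline-inducible 4EBP1-4A, a form of 4EBP1 with alanine at 4 phosphorylation sites, and sorted on GFP. 4EBP1 binds the cap-binding factor eIF4E and holds back cap-dependent translation until it is phosphorylated. All groups carried the construct: 3 samples received DMSO, its uninduced control, and 3 received doxycycline at a stated 2 mg/ml for 12 h. The series text states 2 h, and the study's results text a longer time than either. RNA-seq and Ribo-seq, which sequences the fragments that ribosomes protect, were made after a brief cycloheximide treatment, giving 12 libraries. No label says whether same-numbered RNA-seq and Ribo-seq libraries came from 1 culture. Whether the sorted cells were 1 clone is not given in the sources used here, and no label says how the cultures were separated, so the p-values measure the spread between these samples.

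Microtubules are hollow polymers of alpha and beta tubulin dimers that build the mitotic spindle, carry cargo and form the core of cilia. Newly made tubulins are folded by prefoldin, the CCT chaperonin and the tubulin cofactors, and when free dimers accumulate, TTC5 binds the start of a nascent tubulin and, with SCAPER, recruits the CCR4-NOT deadenylase so that the tubulin mRNA is degraded during its translation. The isotypes are alike over most of the protein and differ chiefly in the acidic tail at the end, where most modifications are made. TUBB3 is known from neurons, TUBB1 from platelets, and TUBA1B, TUBB and TUBB4B from dividing cells.

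The first 12 coding bases are shown because the start of the nascent protein is what TTC5 binds, and they are spliced from GENCODE release 44 transcripts on GRCh38. Capitals mark codons 2 to 4, and each line gives 1 of the 6 distinct versions, which is all that the 10 genes hold.
TUBA1A, TUBA1B and TUBA1C: atgCGTGAGTGC
TUBA4A: atgCGTGAATGC
TUBB and TUBB4B: atgAGGGAAATC
TUBB2A: atgCGCGAGATC
TUBB2B: atgCGTGAGATC
TUBB3 and TUBB6: atgAGGGAGATC
Codon 4 was TGC in all alpha isotypes and ATC in all beta isotypes.

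The last 30 coding bases of the beta isotypes, stop codon included, are shown because they encode the tail by which isotypes are told apart. Capitals mark bases that differ from TUBB at the same distance from the end, compared without gaps.
TUBB: ttcggtgaggaggccgaagaggaggcctaa
TUBB2A: GAGgAGgaggaggGcgaGgaCgaggcTtaa
TUBB2B: GAGgAGgaggaggGcgaGgaCgaggcGtaG
TUBB3: GAGgAGTCggaggccCaGgGCCCCAAGtGa
TUBB4B: GAGgAGgaggCTgAGgaGgaggTggcctaG
TUBB6: GAGgAtgaggaAgAGgaGATCgaTgGAtaG
TUBB3 had the most differing bases, 18 of 30. TUBB2A and TUBB2B differed from TUBB by 9 and 10 bases.

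Each of the 10 canonical transcripts has 4 exons, and the positions below are those of GENCODE release 44 on GRCh38. On chromosome 12, TUBA1B lies at chr12:49127782-49131397 and TUBA1A at chr12:49184686-49189080, both on the - strand. TUBA1C lies beside them at chr12:49188736-49274600 on the + strand, and its exons overlap those of TUBA1A over 104 bases. TUBA4A lies at chr2:219249710-219277902 on the - strand. The beta genes are spread over 4 chromosomes. TUBB lies at chr6:30717435-30725538 on the + strand, TUBB2A at chr6:3153497-3157544 and TUBB2B at chr6:3223324-3231730, both on the - strand. On the + strand are TUBB3 at chr16:89921392-89938761, TUBB4B at chr9:137241287-137243707 and TUBB6 at chr18:12307669-12344320.

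How alike the isotypes are bears on the counts, since only uniquely aligned reads were counted. Coding identity was 98.1% between TUBB2A and TUBB2B, 97.2% between TUBA1A and TUBA1B and 96.8% between TUBA1B and TUBA1C. Across pairs it ranged from 84.4% to 97.2% among the 4 alpha isotypes and from 80.9% to 98.1% among the 6 beta isotypes. Windows of 50 bases counted as unique when found nowhere else in the genome or in transcripts of genes that did not overlap the isotype. Of the 50-base windows inside the coding sequence, the unique part was 19.6% for TUBB2B, 21.3% for TUBB2A and 24.2% for TUBA1B. It was 42.7% for TUBA1A, 44.4% for TUBA1C and 66.1% for TUBB. The remaining isotypes were mostly distinct, at 87.3% for TUBB4B, 87.9% for TUBB3, 91.2% for TUBA4A and 97.9% for TUBB6. The TUBB3 value leaves aside an overlapping gene on the same strand that shares 92.8% of its transcript. Windows that reached outside the coding sequence were unique in 87.6% to 100% of cases.

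**Figure D1:**
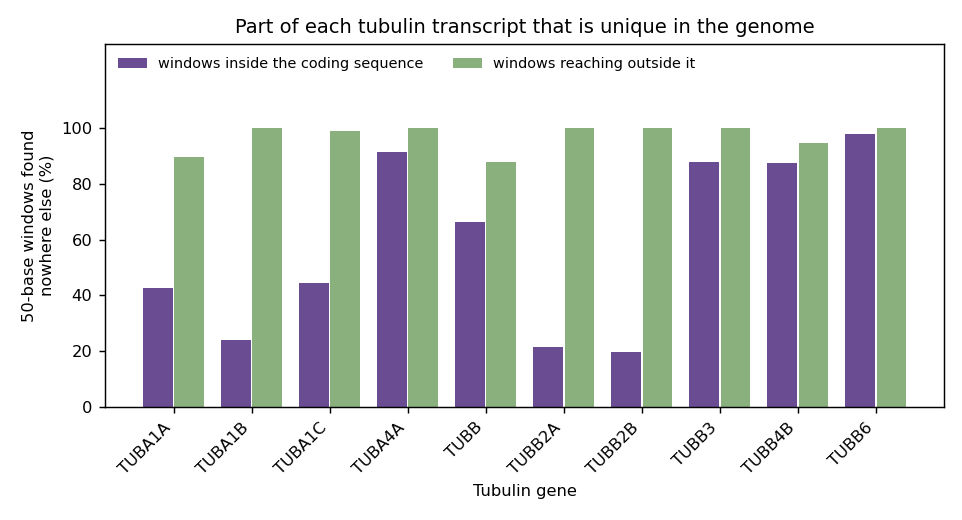
Percent of 50-base windows of each canonical transcript that occur nowhere else, overlapping genes left aside, for windows inside the coding sequence (purple bars) and windows reaching outside it (green bars). TUBB2B, TUBB2A and TUBA1B have the lowest purple bars, at 19.6%, 21.3% and 24.2%, and every green bar is at 87.6% or above.

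Reads on genes numbered 51519700 to 57824136 in the DMSO RNA-seq libraries and 21687906 to 47862104 in the doxycycline ones. The class of alignments to several places, given to no gene, may hold a read more than once, so its part of all counts need not be a share of reads. That part was 54.9%, 62.3% and 58.6% in the DMSO RNA-seq libraries and 65.4%, 69.9% and 88.4% in the doxycycline ones. The treatments did not overlap in this measure, with doxycycline higher, and its part in the values of the near-identical isotypes was not tested. Doxycycline replicate 3, the shallowest and the highest in this class, stood apart, and the values that it moved most are also given without it. In Ribo-seq the reads on genes numbered 210186 to 1002424 a library, of which 86.0% to 94.5% fell on 10 genes. EIF4EBP1, the induced gene, had 158 ± 8.29 CPM (reads per 1000000 on genes, scaled with TMM factors; SD, n = 3) with DMSO and 274 ± 14.3 with doxycycline, higher in all 3 doxycycline libraries. Its log2 fold change of 0.79 did not pass edgeR's quasi-likelihood test over all genes (adjusted p = 0.303) and passed it without doxycycline replicate 3 (adjusted p = 1.1e-05, log2 fold change 0.76). All 6 markers of 293-type lines were at or above 1 CPM, among them VIM and NEFL, and so were 3 of 6 markers of mature neurons, 2 of 3 of fibroblasts, 1 of 4 of keratinocytes and 0 of the 7 of blood and hepatocytes. The summed markers of 293-type lines were 972 to 1067 CPM with DMSO and 1100 to 1435 with doxycycline. The summed neuron markers were 21.3 to 22.4 CPM with DMSO and 23.7 to 29.5 with doxycycline, SYP alone making up most of this, and DCX, ELAVL3 and ELAVL4 were near 0. KRT5 and KRT14, which define keratinocytes, had 0 reads, and the summed keratinocyte markers were 4.99 to 5.63 CPM with DMSO and 2.35 to 4.89 with doxycycline. The summed fibroblast markers were 10.5 to 13.1 and 13.0 to 29.4 CPM. The part of these shifts in the tubulin values was not tested.

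TUBB, TUBA1B and TUBB4B made up most tubulin mRNA in the untreated cells. Per kilobase of canonical transcript, TUBB stood at 395 ± 2.07 CPM per kb (SD, n = 3), TUBA1B at 358 ± 7.72 and TUBB4B at 223 ± 9.16. Among 19831 protein-coding genes these levels ranked 60, 75 and 143. A middle group followed, with TUBA1C at 53.1 ± 1.03 CPM per kb, TUBA1A at 42.8 ± 0.789, TUBB6 at 34.9 ± 0.446 and TUBB2B at 18.9 ± 0.894. TUBB2A stood at 9.48 ± 0.536 CPM per kb, TUBA4A at 2.75 ± 0.0739 and TUBB3 at 0.285 ± 0.0857, which came from 20 to 32 reads a library. The DMSO libraries of neighbours in this order did not overlap in any of the 9 pairs, the closest being TUBB over TUBA1B by 1.10 times.

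**Figure D2:**
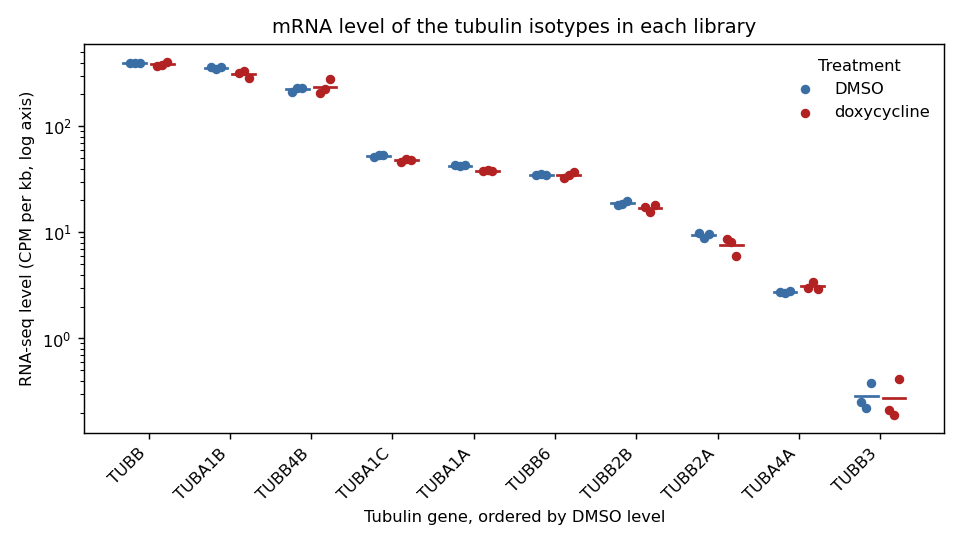
RNA-seq level of each isotype in CPM per kb on a log axis, ordered by the DMSO mean, with 1 point per library, a line at each group's mean, DMSO in blue and doxycycline in red. The levels run from 395 for TUBB to 0.285 for TUBB3, and the step between isotypes is mostly larger than the step between treatments.

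The order depended on the length by which reads were divided. When only the windows of 50 bases unique to an isotype counted as its length, TUBA1B came first at 993 ± 21.4 CPM per 1000 windows and TUBB second at 527 ± 2.76. TUBA1A (85.0 ± 1.57) then stood above TUBA1C (73.7 ± 1.43), and TUBB2B (43.4 ± 2.05) above TUBB6 (36.4 ± 0.465). TUBB4B kept its place after these 2 leading isotypes, and TUBB2A, TUBA4A and TUBB3 kept the lowest 3 places. For TUBB3 these windows include bases shared with an overlapping gene.

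TUBB3 is a special case. Of the 1706 bases of its canonical transcript, 1584 (92.8%) are also exons of a readthrough gene on the same strand (ENSG00000198211), which had 0 reads in all 12 libraries, and the counts hold a class of ambiguous reads that were given to no gene. That leaves 122 unshared bases of this transcript. If all its reads came from these bases, TUBB3 would stand at 3.98 ± 1.20 CPM per kb and above TUBA4A. Its merged exons make up 7421 bases, and where its reads lie is not known. Its level is therefore uncertain. The counting's use of strand is not given in the sources used here, and opposite-strand exons cover 72.6% of the TUBA1B transcript (TUBA1B-AS1), 30.6% of TUBA4A (STK16), 23.6% of TUBA1C, 21.4% of TUBB, 7.93% of TUBB4B and 6.22% of TUBA1A. Without strand, reads of these pairs could not be told apart.

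Within the alpha family, TUBA1B made up 78.4% ± 0.346 (SD, n = 3) of the level per kilobase with DMSO, TUBA1C 11.6% ± 0.354, TUBA1A 9.36% ± 0.0121 and TUBA4A 0.603% ± 0.00921. Within the beta family, TUBB made up 57.9% ± 0.697, TUBB4B 32.8% ± 0.794, TUBB6 5.12% ± 0.0488, TUBB2B 2.77% ± 0.108, TUBB2A 1.39% ± 0.0990 and TUBB3 0.0417% ± 0.0123. The leading isotype of each family was the same under every length tried, with TUBA1B at 72.0% to 86.1% and TUBB at 54.7% to 68.0%. The alpha family as a whole stood at 0.670 ± 0.0217 times the beta family per kilobase, but at 1.29 ± 0.0413 times with the unique 50-base windows, so which family is more abundant could not be read from these counts.

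**Figure D3:**
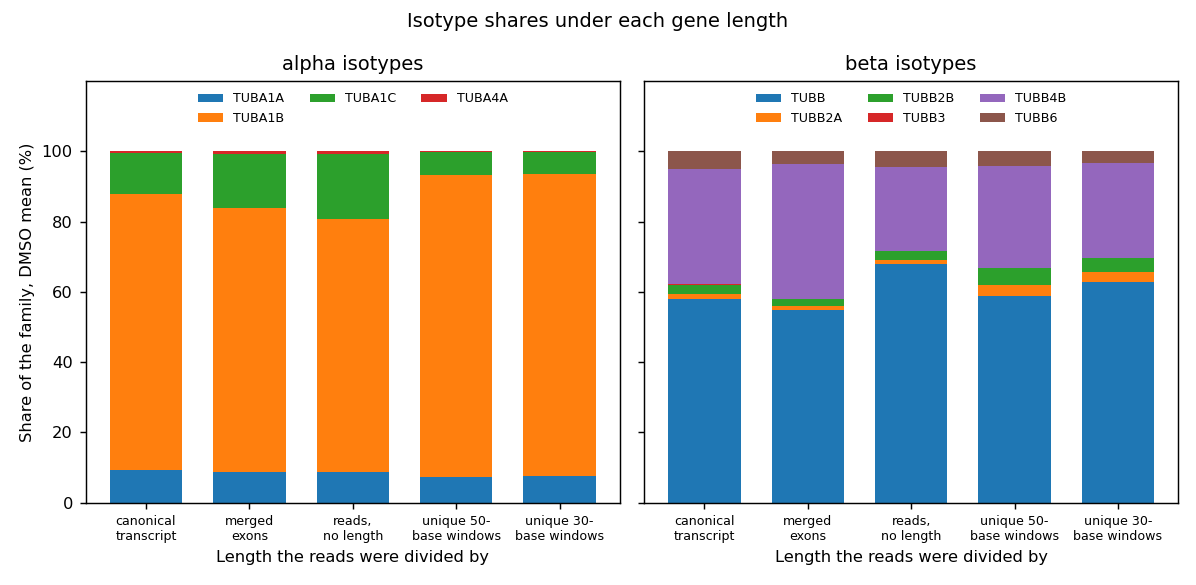
Share of each isotype in its family (percent of the summed level, mean of the 3 DMSO libraries) when reads are divided by 5 measures of length, alpha on the left and beta on the right. TUBA1B fills 72.0% to 86.1% of the alpha bars and TUBB 54.7% to 68.0% of the beta bars.

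With doxycycline, which induces 4EBP1-4A, no tubulin mRNA passed the test of a difference. The quasi-likelihood test of edgeR, adjusted over all genes by Benjamini-Hochberg, called 0 of the 10 isotypes and 0 of 20552 genes (0%), with adjusted p from 0.303 to 0.952 for the isotypes. No isotype had an unadjusted p under 0.05, which 3073 genes (15%) had, 2189 higher and 884 lower. DESeq2's Wald test called 3 genes and edgeR's likelihood ratio test 12, with no isotype among them. Doxycycline libraries lay wholly below DMSO libraries for 5 isotypes and wholly above for 1, against 18.9% and 19.7% of all genes. The median log2 fold change was -0.14 over the isotypes and 0.0029 over all genes tested.

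The alpha genes TUBA1A, TUBA1B and TUBA1C had similar fitted changes. TUBA1B, the leading alpha isotype, had 594, 569 and 586 CPM with DMSO and 522, 546 and 468 with doxycycline. All doxycycline libraries were lower, replicate 3 the lowest, and the log2 fold change was -0.19 (95% interval -0.40 to 0.03; edgeR adjusted p = 0.303), or -0.13 without that replicate. TUBA1A, common in the developing brain, had 72.6, 70.0 and 71.9 CPM with DMSO and 63.1, 64.3 and 63.0 with doxycycline. The groups did not overlap and each was tight, with a log2 fold change of -0.17 (95% interval -0.38 to 0.04; edgeR adjusted p = 0.305). TUBA1C had 147, 150.3 and 152 CPM with DMSO and 131, 139.6 and 136 with doxycycline. Here too the groups did not overlap, with a log2 fold change of -0.15 (95% interval -0.35 to 0.06; edgeR adjusted p = 0.327). Leaving out doxycycline replicate 3 gave -0.17 for TUBA1A and -0.15 for TUBA1C, with edgeR adjusted p of 0.115 and 0.143, when 1442 of 20459 genes (7.05%) passed.

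TUBA4A, an alpha isotype known from muscle, platelets and motor neurons, was the only one with the doxycycline libraries wholly above the DMSO ones. It had 5.67, 5.48 and 5.78 CPM with DMSO and 6.07, 6.93 and 6.05 with doxycycline. The groups lay close together, and the log2 fold change was 0.17 (95% interval -0.11 to 0.45; edgeR adjusted p = 0.372), or 0.10 without doxycycline replicate 2. In the annotation 30.6% of its transcript overlaps STK16 on the other strand.

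The beta genes spread on both sides of 0. TUBB, the main beta isotype, had 987, 996 and 996 CPM with DMSO and 941, 954 and 1025 with doxycycline. Doxycycline replicate 3 lay above the DMSO libraries and the other two below, so the groups overlapped, with a log2 fold change of -0.03 (95% interval -0.22 to 0.16; edgeR adjusted p = 0.831). It was -0.068 without replicate 3 and -0.0043 without replicate 1. TUBB4B, the other broadly expressed beta isotype, had 333, 359 and 356 CPM with DMSO and 326, 349 and 435 with doxycycline. Only replicate 3 was high, and the log2 fold change of 0.08 (95% interval -0.21 to 0.37; edgeR adjusted p = 0.679) was -0.05 without it. TUBB6 had 64.8, 66.5 and 65.6 CPM with DMSO and 61.4, 64.7 and 69.4 with doxycycline. Its groups overlapped, and the log2 fold change was -0.01 (95% interval -0.23 to 0.21; edgeR adjusted p = 0.952), or -0.06 without replicate 3. For TUBB and TUBB6 the sign turned with library totals as the scaling (0.07 and 0.09), under which the median of all genes was 0.10.

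The near-identical pair TUBB2A and TUBB2B, expressed most in the nervous system, had lower doxycycline libraries throughout. TUBB2A had 16.1, 14.4 and 15.5 CPM with DMSO and 14.1, 13.1 and 9.78 with doxycycline. Replicate 3 was far below the others: the log2 fold change was -0.31 (95% interval -0.67 to 0.05; edgeR adjusted p = 0.303) and -0.17 without it. TUBB2B had 35.1, 35.6 and 38.3 CPM with DMSO and 33.7, 30.1 and 34.9 with doxycycline. Its groups did not overlap but nearly met, with a log2 fold change of -0.14 (95% interval -0.39 to 0.10; edgeR adjusted p = 0.399), or -0.08 without doxycycline replicate 2. Since the genes share 98.1% of their coding bases, how reads divide between them is uncertain.

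TUBB3 had 24, 20 and 32 reads with DMSO and 17, 15 and 17 with doxycycline. In CPM these were 0.432, 0.374 and 0.651 against 0.358, 0.321 and 0.714, and the groups overlapped. The log2 fold change of -0.16 had a 95% interval from -1.03 to 0.71 (edgeR adjusted p = 0.791), and -0.50 came without doxycycline replicate 3. A change of this gene was not detectable at this depth.

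**Figure D4:**
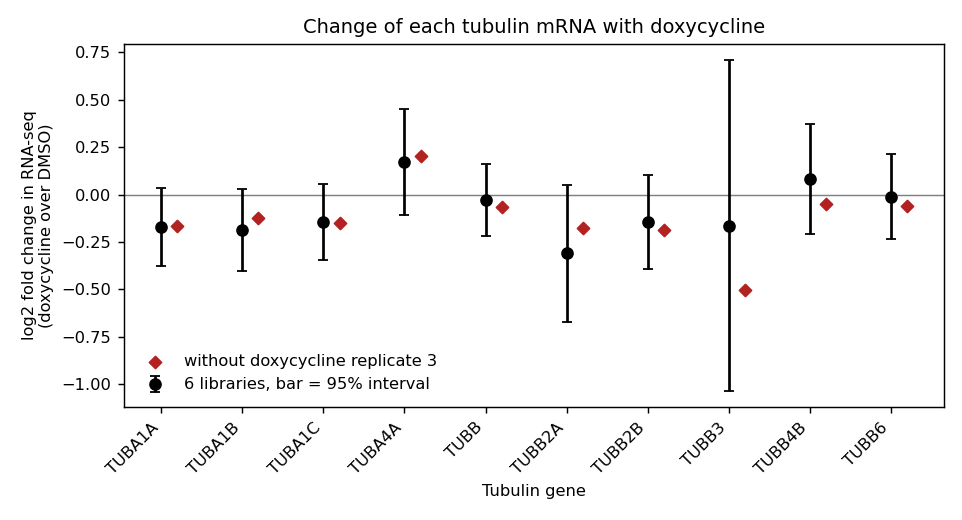
Fitted log2 fold change of each isotype, doxycycline over DMSO, with its 95% interval (black, 6 RNA-seq libraries) and without doxycycline replicate 3 (red diamonds, no interval drawn). Every interval includes 0, and that of TUBB3, from -1.03 to 0.71, is the widest.

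Summed over the family, the alpha isotypes held 810 ± 13.0 CPM with DMSO and 717 ± 42.0 with doxycycline (SD, n = 3). The single libraries were 819, 795 and 816 CPM against 722, 756 and 673 and did not overlap, a log2 difference of -0.17 between the means that was -0.08 with library totals. The beta isotypes summed to 1460 ± 20.6 CPM with DMSO and 1454 ± 106 with doxycycline, and overlapped. The alpha to beta ratio per kilobase was 0.693, 0.650 and 0.668 with DMSO and 0.636, 0.646 and 0.504 with doxycycline. All doxycycline libraries were lower, though 2 of them lay just under the lowest DMSO library and replicate 3 far below, and the same held under all 6 measures of length. These are descriptions, since the sums were not tested.

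The shares of the isotypes within their family were compared next. The TUBA4A share was 0.598%, 0.598% and 0.614% with DMSO and 0.726%, 0.793% and 0.784% with doxycycline. It was the only share of 10 whose groups did not overlap, higher by 0.165 percentage points (exact permutation test, two-sided, p = 0.1, the smallest that 3 against 3 allow). The TUBA1B share differed by -0.53 points (exact permutation test, p = 0.8), or 0.22 without doxycycline replicate 3. The TUBB share differed by -1.17 points (exact permutation test, p = 0.4), or -0.064 without that replicate. The TUBB4B share was 31.9%, 33.4% and 33.1% with DMSO and 32.5%, 33.8% and 37.2% with doxycycline, high only in replicate 3, a difference of 1.74 points (exact permutation test, p = 0.4) that was 0.370 without it. No share could have passed 0.05 in this design, and the 10 p-values are unadjusted.

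The 3 genes whose pattern over the 6 RNA-seq libraries was nearest to that of TUBA1B were RPL35, ATP6V1E1 and CNOT9, with root mean square differences of 0.0172, 0.0173 and 0.0192 in centred log2 CPM, among 5115 genes at 50 CPM or more. Those nearest to TUBB were SFT2D2, NONO and DNAJC8, at 0.00611, 0.0177 and 0.0180.

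Counted Ribo-seq reads on tubulin mRNA were almost absent. Only uniquely aligned reads were counted, and the class of alignments to several places held 30.6% to 57.2% of all counts of a Ribo-seq library. Of the 30-base windows inside the coding sequence, the unique part was 13.2% for TUBA1B, 26.1% for TUBA1A, 42.5% for TUBB and 88.9% for TUBB6. The part of this in the low counts was not tested. The 10 isotypes held 12 Ribo-seq reads against 613283 RNA-seq reads, over 6 libraries each. TUBA1A had 5 (1, 3 and 0 with DMSO, 1, 0 and 0 with doxycycline), TUBA1B had 3, all in DMSO replicate 2, and TUBB4B had 2, 1 each in DMSO replicates 1 and 3. TUBB had 1 in DMSO replicate 1 and TUBB6 had 1 in DMSO replicate 2. TUBA1C, TUBA4A, TUBB2A, TUBB2B and TUBB3 had 0, and a count of 0 allows up to 3 reads (one-sided 95% limit, counting error only). By treatment this was 11 reads with DMSO, most of them in replicate 2, and 1 with doxycycline, a split that was not tested. Ribo-seq reads on genes numbered 210186 to 1002424 a library with DMSO, of which 86.0% to 92.1% fell on 10 genes. With doxycycline they numbered 299907 to 883572, of which 87.0% to 94.5% did. No isotype reached the 10 Ribo-seq reads needed for the test of translational efficiency, the Ribo-seq level relative to RNA-seq, in which 2 of 1334 genes (0.15%) passed, both lower. A change in tubulin translation was not detectable from so few counted reads.

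This scarcity was shared with other abundant mRNAs. Had the Ribo-seq reads been spread over genes as the RNA-seq reads were, the isotypes would have held 7981 of them, or 721 of the reads outside the 10 leading genes. Per 1000000 RNA-seq reads the isotypes, pooled, had 19.6 Ribo-seq reads (95% exact Poisson interval 10.1 to 34.2, counting error only). The 500 protein-coding genes with the highest RNA-seq CPM, of which 3 are isotypes, had a median of 20.4. This is a median over single genes, not a pooled value. Of these 500 genes, 299 (59.8%) had 3 Ribo-seq reads or fewer. TUBA1A alone had 266 on that scale (95% exact Poisson interval 86.3 to 620) from its 5 reads, while TUBB had 3.69 (0.0935 to 20.6) from its 1 read.

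**Figure D5:**
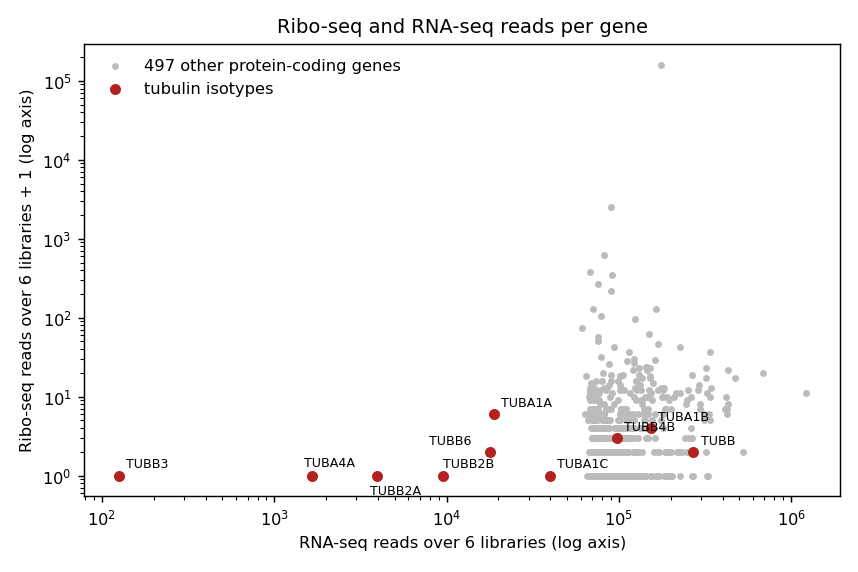
Ribo-seq reads plus 1 against RNA-seq reads, both summed over 6 libraries on log axes, for the 10 isotypes (red) and the 497 other genes among the 500 protein-coding genes with the highest RNA-seq level (grey). The isotypes hold 0 to 5 Ribo-seq reads and lie in the lower band with most grey points.

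A tubulin pseudogene held more Ribo-seq reads than all isotypes together. TUBAP14 had 15 (0, 6 and 9 with DMSO, 0 in every doxycycline library) against 40 RNA-seq reads, and the edgeR test of translational efficiency gave it an adjusted p of 0.211. The 50 tubulin pseudogenes held 16 Ribo-seq reads and 3328 RNA-seq reads, which is 0.543% of the isotypes' RNA-seq reads, and 42 of them had at least 1 RNA-seq read. The 6 with enough reads for the RNA-seq test had log2 fold changes from -0.18 to 0.09 and 0 passed. TUBA5P, the highest, had 4.54 ± 0.298 CPM with DMSO and 4.80 ± 0.226 with doxycycline (SD, n = 3).

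Other tubulins were measured beside the isotypes. Of the 12 listed, 6 had enough reads and 0 passed the edgeR test, with 2 wholly lower and 2 wholly higher, against 18.9% and 19.7% of all genes. TUBG1, the gamma tubulin of the nucleating ring complex, had 75.7 ± 1.44 CPM with DMSO and 84.1 ± 3.03 with doxycycline, and its paralogue TUBG2 had 11.2 ± 0.967 and 12.9 ± 1.88. TUBB4A, a beta isotype of the brain, had 10.4 ± 1.97 and 17.3 ± 6.62 CPM (log2 fold change 0.73; edgeR adjusted p = 0.303; 0.39 and 0.0623 without doxycycline replicate 3). TUBD1 and TUBE1, the delta and epsilon tubulins of centrioles, had 18.6 ± 0.630 and 16.2 ± 0.875 CPM, and 55.7 ± 5.62 and 34.4 ± 13.4. TUBE1 alone passed without doxycycline replicate 3 (log2 fold change -0.41; edgeR adjusted p = 0.0180), 1 of 6 against 7.05% of all genes. TUBA8 had 192 RNA-seq reads in all.

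Of the 20 folding genes, 0 passed the edgeR test, 15 had fitted log2 fold changes below 0, and the median was -0.10 against 0.0029 for all genes. Doxycycline libraries lay wholly higher for 3 of them and wholly lower for 2, against 19.7% and 18.9% of all genes. The chaperonin subunit CCT3 had 824 ± 38.8 CPM with DMSO and 781 ± 109.8 with doxycycline, and CCT7 had 689 ± 13.9 and 762 ± 36.9. The cofactor TBCD, which acts on beta tubulin and the dimer, had 83.9 ± 4.08 and 116 ± 27.1 CPM, highest in replicate 3 (log2 fold change 0.47; edgeR adjusted p = 0.303). It passed without that replicate (0.27; edgeR adjusted p = 0.0334), 1 of 20 against 7.05% of all genes. TBCA, which receives folded beta tubulin, had 38.4 ± 0.767 and 32.2 ± 3.90 CPM. The prefoldin subunit VBP1 had 148 ± 13.8 and 108 ± 34.6. Without doxycycline replicate 3 the log2 fold change of VBP1 was -0.22 in place of -0.45 and that of CCT3 0.03 in place of -0.08.

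Of the 12 autoregulation genes, 0 passed, 11 had fitted values below 0 and the median log2 fold change was -0.23. Apart from TTC5 and SCAPER, whose single values are not described, the list holds only CNOT genes of CCR4-NOT. The doxycycline libraries lay wholly below the DMSO ones for 9 of them, against 18.9% of all genes. CNOT1, the scaffold of CCR4-NOT, had 671 ± 13.7 CPM with DMSO and 571 ± 113 with doxycycline, a log2 fold change of -0.23 that was -0.08 without doxycycline replicate 3. CNOT2 and the deadenylase CNOT6L had log2 fold changes of -0.47 and -0.56 (edgeR adjusted p = 0.303 for both) and passed without that replicate, at -0.26 (adjusted p = 0.0378) and -0.29 (adjusted p = 0.0364), 2 of 12 against 7.05% of all genes. CNOT3 was the one above 0, at 0.40 (edgeR adjusted p = 0.303), or 0.23 without that replicate.

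Of the 29 modification genes, 24 were tested and 0 passed, with 10 wholly higher and 6 wholly lower, against 19.7% and 18.9% of all genes, and a median log2 fold change of 0.06. TTLL12, of the tyrosine ligase-like family, had 171 ± 8.17 CPM with DMSO and 235 ± 54.0 with doxycycline. It passed only without doxycycline replicate 3 (log2 fold change 0.26; edgeR adjusted p = 0.0322), 1 of 24 against 7.05% of all genes. VASH1, which removes the last tyrosine of alpha tubulin, had 38.6 ± 4.79 and 60.5 ± 23.2 CPM, and TTLL3, a glycylase, had 27.8 ± 1.29 and 37.6 ± 8.63. Their log2 fold changes of 0.65 and 0.44 were 0.29 and 0.24 without that replicate. TPGS2, a polyglutamylase subunit, had 165 ± 1.89 and 142 ± 14.2 CPM.

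Of the 12 nucleation genes and 19 dynamics genes, 0 passed, with median log2 fold changes of 0.03 and -0.08. Among nucleation genes 3 were wholly higher and 2 wholly lower, and among dynamics genes 3 and 8, against 19.7% and 18.9% of all genes. The microtubule polymerase CKAP5 had 562 ± 14.7 CPM with DMSO and 553 ± 34.5 with doxycycline, and the spindle factor TPX2 had 284 ± 4.30 and 278 ± 19.6. The ring complex genes TUBGCP2 and TUBGCP6 had log2 fold changes of 0.33 and 0.43 (edgeR adjusted p = 0.303 for both), which were 0.18 and 0.19 without doxycycline replicate 3. Stathmin (STMN1), which holds free dimers, had 259.8 ± 1.69 and 233 ± 11.5 CPM, lower in every doxycycline library, and MAP4 had 256 ± 10.1 and 267 ± 15.3. Without doxycycline replicate 3, MZT1 of the ring complex passed at -0.57 (edgeR adjusted p = 0.0136) and MAP1S at 0.39 (adjusted p = 0.0230). These were 1 of 12 nucleation genes and 1 of 19 dynamics genes, against 7.05% of all genes. MZT1 was named for that result, after its values were seen.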

How the data were processed

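Counts of RNA-seq and Ribo-seq reads per gene were examined in 12 libraries, grouped by their labels. For Ribo-seq alone, the authors first trimmed the linker and removed ribosomal RNA reads. They aligned both assays to GRCh38 using STAR and kept reads with a unique alignment to exons; the deposited counts are raw, and the labels name GRCh37 and Ensembl 75. The authors' table of translational efficiency holds their dispersion scores, p-values, q-values, ratios and log2 values, made with RiboDiff; it was used for gene symbols only. Genes received 5.94% to 30.8% of all RNA-seq counts and between 0.888% and 2.95% of all Ribo-seq counts. The other counts, the spike-ins and the viral rows stayed out of library sizes and tests.

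Library sizes were scaled with TMM factors (edgeR 4.0.16, limma 3.58.1, R 4.3.3). Genes reaching 10 reads in 3 or more libraries entered edgeR's quasi-likelihood test of RNA-seq, and those with at least 10 reads summed over each assay the test of the assay by treatment interaction, both adjusted by Benjamini-Hochberg at 0.05. Levels of different genes were divided by the length of the Ensembl canonical transcript in GENCODE release 44, which 58207 of 58735 genes matched. Shares were compared with the exact permutation test. The last coding bases of the alpha isotypes are not reported here. Depth set the precision: 3 reads of RNA-seq were worth 0.0519 to 0.138 CPM and 3 reads of Ribo-seq 2.99 to 14.3 CPM.

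The named genes were the isotypes, EIF4EBP1, the other tubulins with at least 10 reads, of each other list the 2 highest and the 3 with the lowest p, and the 3 genes most like TUBA1B and TUBB. Not all of these are described. The isotypes, the 7 gene lists and the rule were chosen with earlier results of these data known. Alternatives were DESeq2's size factors and Wald test (version 1.42.0), library totals, other filters, the likelihood ratio test, blocks, other lengths and each replicate left out. A length of unshared bases was added after the overlap of TUBB3 was seen. Same-numbered DMSO and doxycycline RNA-seq libraries were checked for pairing. In simulated counts the RNA-seq test recovered 104 of 200 genes changed 2-fold and 186 of 200 changed 4-fold, and the translational efficiency test 0 of 200 changed 8-fold. Python 3.11.15, numpy 2.4.6, scipy 1.17.1, pandas 2.3.3, Biopython 1.88 and matplotlib 3.10.9 were used.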

Additional observations from a re-analysis of the deposited data

How the results depend on the processing

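The isotypes stayed uncalled in all 14 RNA-seq fits, with adjusted p from 0.115 to 0.997. Over all genes, the RNA-seq test called 0 genes higher and 0 lower, 1 and 2 with DESeq2's Wald test, 4 and 8 with the likelihood ratio test, and 0 to 769 higher and 0 to 673 lower when a replicate was left out, the highest without doxycycline replicate 3. Translational efficiency was called higher for 0 genes and lower for 2, then 3 and 4 with no filter, 28 and 52 with the Wald test, 85 and 131 with the likelihood ratio test, 0 and 1 with library totals, 0 and 0 with a culture block, and 0 to 1 and 0 to 1 with a replicate left out. No pairing by replicate number was seen. Same-numbered deviations had correlations of 0.24, -0.18 and 0.026, and differently numbered ones -0.29 to 0.27. These values cannot show whether same-numbered libraries were prepared together. With the replicate block, RNA-seq calls stayed at 0 and 0 and translational efficiency calls were 0 higher and 1 lower, and no isotype was called.

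The sign of uncalled log2 fold changes turned for TUBB (0.074) and TUBB6 (0.092) with library totals. With a replicate left out they ranged from -0.068 to -0.0043 for TUBB, 0.10 to 0.21 for TUBA4A, -0.19 to -0.08 for TUBB2B, -0.42 to -0.17 for TUBB2A, -0.50 to 0.10 for TUBB3 (above 0 without DMSO replicate 3 or doxycycline replicate 2), -0.050 to 0.17 for TUBB4B (below 0 without doxycycline replicate 3) and -0.058 to 0.032 for TUBB6 (above 0 without doxycycline replicate 1). Differences in share then ranged from -0.92 to 0.22 percentage points for TUBA1B, -0.22 to 0.27 for TUBA1A, -0.15 to 0.57 for TUBA1C and -0.11 to 0.027 for TUBB6, turning without doxycycline replicate 3, from -0.011 to 0.0042 for TUBB3, and from -1.95 to -0.064 for TUBB, which kept its sign with canonical length. Without doxycycline replicate 3 the TUBB difference was -0.14 with merged exons and -0.031 with no length. It was above 0 with unique 50-base windows (0.13), unique 30-base windows (0.10) and unshared bases (0.019). The DMSO share of TUBA1B was 75.2% with merged exons, 72.0% with no length, 86.0% with unique 50-base windows and 86.1% with unique 30-base windows, and that of TUBB 54.7%, 68.0%, 58.8% and 62.8%. The cause was not tested. Few counted reads limit TUBB3 in RNA-seq and every isotype in Ribo-seq.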
